A study of Mus musculus with 12 samples.

Results

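Collagens, laminins and the other proteins of the basement membrane were examined at the RNA level in mouse liver. Genes were taken by a rule on their names, which was set with earlier results of these data known. The rule took every collagen chain (Col, a number, a and a number) and every laminin chain (Lama, Lamb or Lamc). It also took Nid1, Nid2, Hspg2, Agrn, Sparc, Dcn, Lum, Bgn and Fn1. Of 48795 rows in the count table, 64 carried such a symbol and 55 of these had at least 10 counts summed over all mice. The 9 rows below that minimum held between 0 and 8 counts (Col2a1, Col6a4, Col6a5, Col9a1, Col9a2, Col11a1, Col19a1, Col26a1 and Col28a1), and Col2a1, the main collagen of cartilage, had none.

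Liver RNA came from 12 female mice, 3 in each of 4 groups formed by genotype label (NTS WT or NTS KO) and feeding (fed ad libitum, or fasted for 22 h). All were 4 months old, on normal chow, with livers described as normal. The study used littermates matched for age and sex, but which mice shared a litter is not given in the sources used here. Mice labelled NTS KO are described as lacking neurotensin, a gut and brain peptide, in the whole body, so a liver difference need not arise in liver cells. The study sequenced these livers to find how neurotensin bears on hepatic metabolism in the fed and the fasted state.

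The basement membrane is a thin sheet of matrix in which a network of laminins and a network of collagen IV are joined by nidogens and by the proteoglycans perlecan (Hspg2) and agrin. Fibrillar collagens give tissue its tensile strength, and FACIT collagens, small leucine-rich proteoglycans and Sparc bind to the fibrils and set their spacing and assembly. In the liver the sinusoids have no complete basement membrane. A loose matrix rich in fibronectin and collagen fills the space of Disse between endothelium and hepatocytes, stellate cells are its chief collagen producers, and full basement membranes surround vessels and bile ducts.

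The libraries held 21999656 to 45273081 expected counts, of which the 55 genes together took 0.215 to 0.310%. A count of 3 in a library corresponded to 0.0663 to 0.136 CPM (counts scaled to the total of the library), and this floor covers counting error only. Counts on Nts itself were 0 in each of the 6 libraries labelled NTS WT and 4 to 46 in each of the 6 labelled NTS KO, against what the labels state. Whether the labels are exchanged or the knockout allele leaves a transcript was not tested. The groups are therefore called livers labelled NTS WT and NTS KO throughout, and the direction of every genotype difference rests on those labels. Exchanging all genotype labels would leave the comparison of fasted with fed mice, averaged over both labels, unaltered. Among the 6 fed mice, mouse 323 (labelled NTS WT) had the lowest value for 24 of the 40 genes tested and mouse 277 (labelled NTS KO) the highest for 18. Among the 6 fasted mice, mouse 282 was the lowest for 12 and mouse 265 the highest for 10 (both labelled NTS WT). How often these mice were lowest or highest over all genes is not given here.

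Most of the RNAs that encode fibrillar collagen, collagen IV and collagen VI, and that of the nidogen Nid2, were lower in fasted than in fed livers, while a few laminin chains, Col12a1 and fibronectin were higher. Of the 55 genes, 40 had enough counts to be tested. In the comparison of 6 fasted with 6 fed mice, averaged over the genotype labels, 22 of the 40 fell and 5 rose (edgeR quasi-likelihood test, Benjamini-Hochberg adjusted p under 0.05 over all 13812 genes tested). Of all genes tested, 16.8% fell and 16% rose, against 55% and 12.5% of these 40. The median log2 difference of the 40 was -0.48, and that of all genes was -0.0071. Levels of 11 of the 40 were lower in every fasted mouse than in any fed mouse, an arrangement found for 7.83% of all genes, and 2 of the 40 were higher in every fasted mouse, found for 8.05%. Liver tissue holds many cell types, so fewer cells of a type and less of an RNA per cell cannot be told apart in these values.

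**Figure D1:**
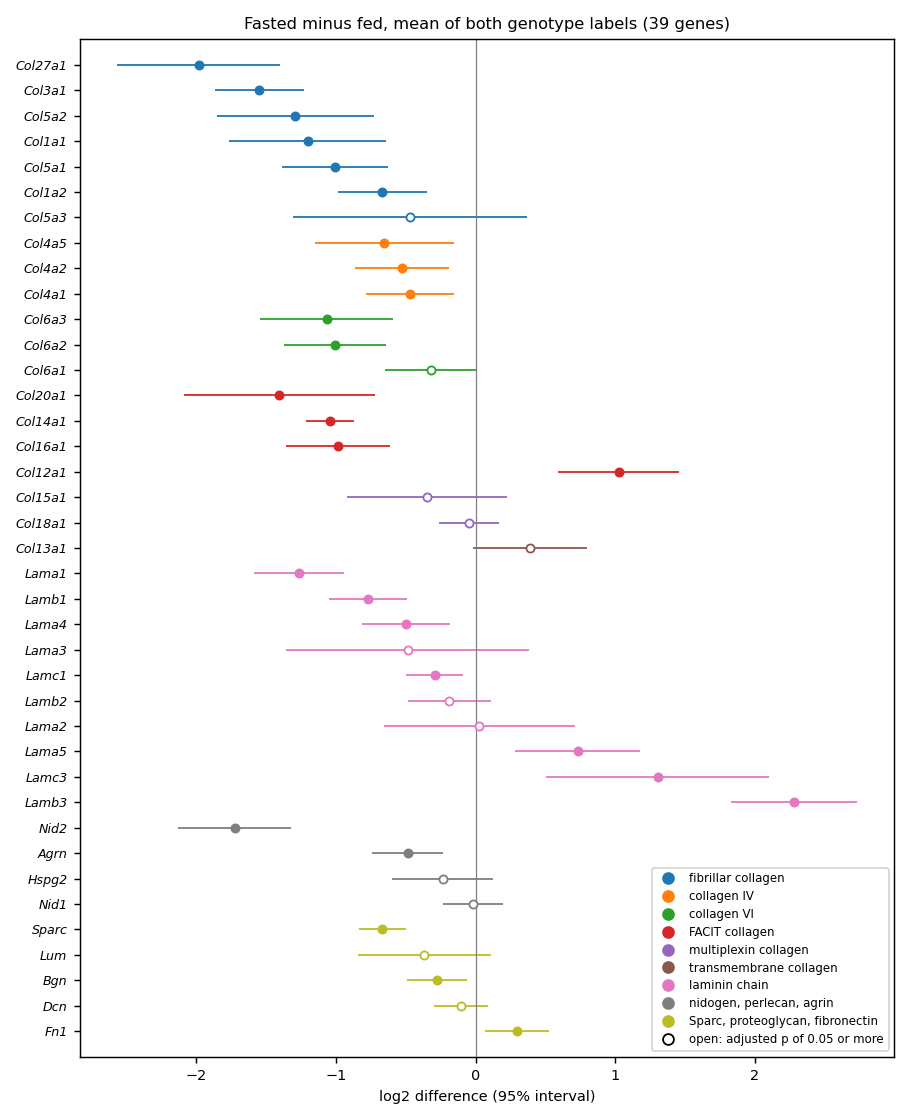
Log2 difference, fasted minus fed livers and averaged over both genotype labels (x axis), for 39 of the genes tested (y axis), coloured by role. Bars are 95% intervals and open circles mark an adjusted p of 0.05 or more. Of the 39 points 32 lie left of 0, from -1.98 for Col27a1, and Lamb3 lies farthest right at 2.28.

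Of 9 fibrillar collagen genes 7 were tested, of which 6 fell and none rose, with a median log2 difference of -1.20. Col3a1 (chr1:45311538-45349706, GRCm38 as for every position here), the chain of type III collagen of reticular fibres, had TMM-normalized levels of 13.4, 13.4 and 10.6 CPM in the 3 fed mice labelled NTS WT and 17.6, 16 and 16.8 in the 3 labelled NTS KO. In fasted mice it stood at 5.22, 3.57 and 5.91 CPM (labelled NTS WT) and 6.55, 4.63 and 3.94 CPM (labelled NTS KO). Every fasted mouse lay below every fed mouse. The fall was 2.93-fold, a log2 difference of -1.55 ± 0.15 (SE; adjusted p = 6.9e-06, edgeR).

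Col1a1 and Col1a2 encode the 2 chains of type I collagen, the main collagen of scar tissue. Col1a1 ran from 0.931 over a median of 1.77 to 3.10 CPM in fed mice and from 0.463 over 0.842 to 1.17 CPM in fasted mice, and fell 2.30-fold (log2 difference -1.20 ± 0.26, adjusted p = 0.0033). Col1a2 ran from 4.57 over 6.43 to 8.49 CPM in fed and from 3.51 over 3.89 to 4.77 CPM in fasted mice, and fell 1.59-fold (-0.67 ± 0.15, adjusted p = 0.0036). For both chains the highest fasted mouse lay just above the lowest fed mouse, which was mouse 323. Per kilobase of transcript, Col1a2 exceeded Col1a1 in every mouse, by 2.72 to 8.49 times, although the assembled protein holds more of the Col1a1 chain. The level of Col3a1 per kilobase was 1.89 to 2.62 times that of Col1a2 in fed mice and 0.952 to 1.36 times in fasted mice, so these ratios did not overlap.

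Of the minor fibrillar chains Col27a1, Col5a1 and Col5a2 fell. Col27a1, a short fibrillar collagen best known from cartilage, had the most negative log2 difference of the 40, -1.98 ± 0.27 (3.96-fold lower, adjusted p = 0.00014), with fed mice between 2.93 and 8.90 CPM and fasted mice between 0.727 and 1.76 CPM. Its fed values were also widely spread, and the lowest again came from mouse 323. Of the type V chains, which start fibril assembly, Col5a1 fell by 1.01 ± 0.18 on the log2 scale and Col5a2 by 1.29 ± 0.26 (adjusted p = 0.00077 and 0.0020). Col5a3 had a log2 difference of -0.47 with a 95% interval from -1.31 to 0.36 and did not pass (adjusted p = 0.37). Its level varied from 3.94 to 14.4 CPM among fed mice alone. The remaining fibrillar genes, Col11a2 and Col24a1, had at most 15 counts in any library and were not tested.

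**Figure D2:**
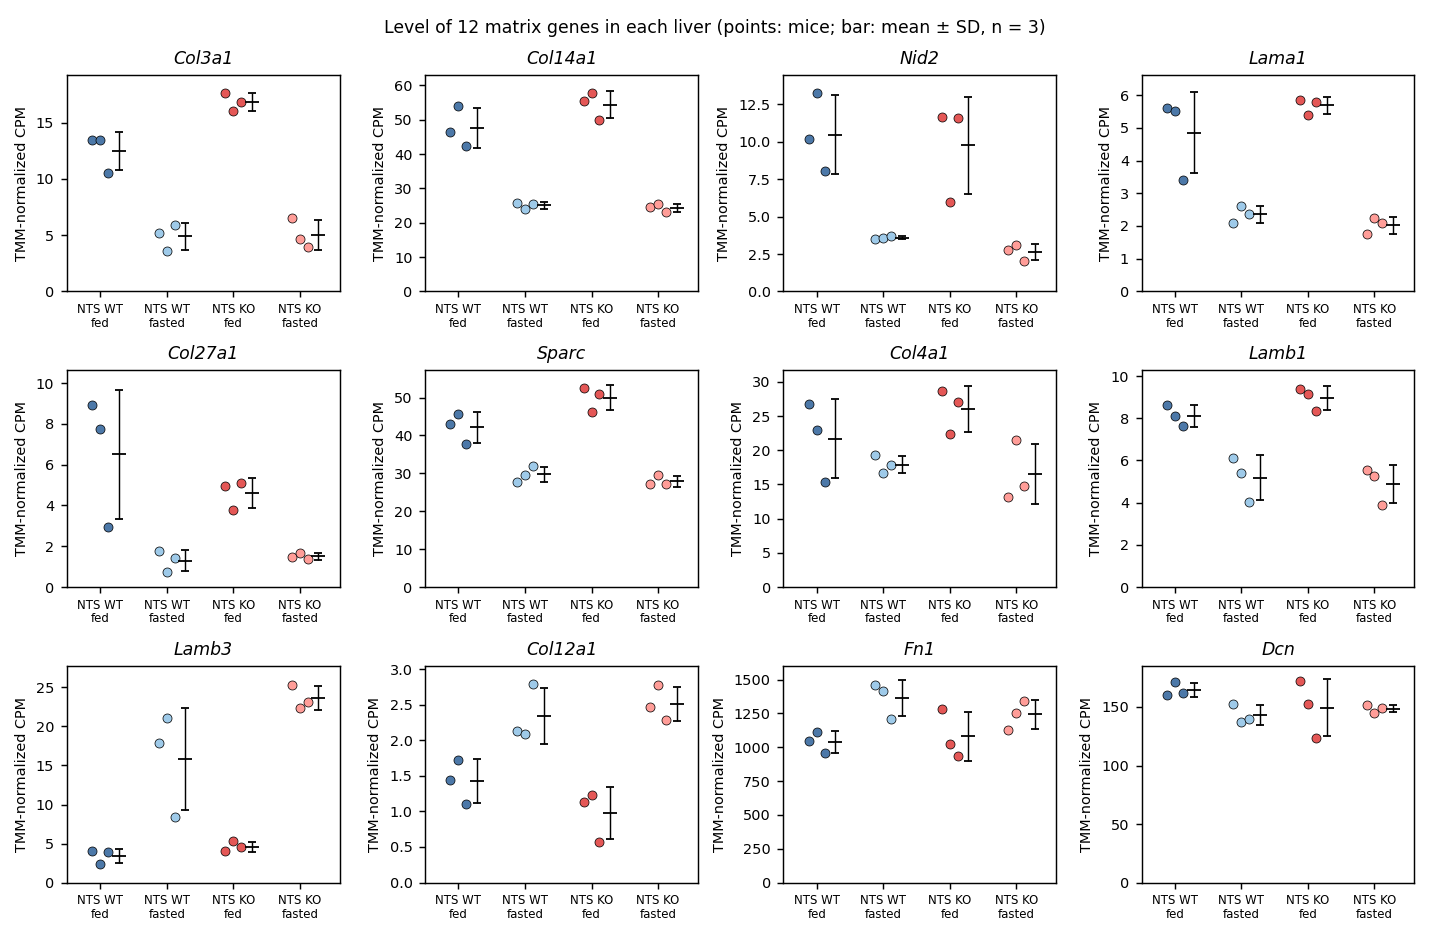
TMM-normalized CPM (y axis, from 0) of 12 genes in each of the 12 livers, by genotype label and feeding (x axis). Points are mice, and the bar beside each group of 3 is the mean ± SD. For Col3a1, Col14a1, Nid2, Lama1, Col27a1, Sparc and Lamb1 every fasted point lies below every fed point, for Lamb3 and Col12a1 every fasted point lies above, and for Col4a1, Fn1 and Dcn the points overlap.

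The 300-base promoter windows of RefSeq (GRCm38.p6, 250 bases before to 50 after a gene's start) were searched for short motifs. They are printed for the reticular fibre gene, for one chain of type I collagen and, further down, for the paired collagen IV genes and for the laminin chain that rose. Capitals mark matches on either strand to any of 3 short motifs. The TATA box was searched as TATAAA. The CCAAT box was searched by the letters of its name, and the GC box as GGGCGG. Col3a1 lies at chr1:45311288-45311587 (plus strand), and its window holds a TATA box, 117 bases before the start, and neither other motif. The window of Col1a2, chr6:4505368-4505667 (plus strand), holds 2 CCAAT boxes, 2 GC boxes and no TATA box.
Col3a1: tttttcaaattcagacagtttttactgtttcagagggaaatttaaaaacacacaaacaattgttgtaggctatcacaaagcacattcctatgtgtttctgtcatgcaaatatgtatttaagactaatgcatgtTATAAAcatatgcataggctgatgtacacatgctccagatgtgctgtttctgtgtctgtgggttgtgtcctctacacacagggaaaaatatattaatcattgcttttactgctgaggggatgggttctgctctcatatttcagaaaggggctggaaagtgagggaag
Col1a2: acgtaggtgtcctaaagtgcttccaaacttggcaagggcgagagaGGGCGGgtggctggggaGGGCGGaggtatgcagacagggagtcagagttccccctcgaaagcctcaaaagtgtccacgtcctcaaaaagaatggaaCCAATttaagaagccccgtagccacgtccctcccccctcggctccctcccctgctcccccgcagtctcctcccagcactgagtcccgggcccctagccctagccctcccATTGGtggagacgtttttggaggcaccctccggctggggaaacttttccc

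Windows were found for 38 of the 55 genes, 42 windows in all. The GC box stood in 27 of the 42 (64.3%) and in 13 of 17 windows of genes that fell (76.5%), against 35.7% of all 32851 windows. The CCAAT box stood in 12 of 42 and in 6 of the 17 (35.3%), with 37.4% of all windows holding it. The TATA box stood in 5 of 42 and in 1 of the 17 (5.88%), with 13.6% of all windows. The windows of all genes were not limited to genes tested in these livers. A match is a run of letters and was not tested as a binding site.

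Collagen IV, the network collagen of basement membranes, fell modestly. Of 6 chains 3 were tested and all 3 fell. Col4a1 and Col4a2 form its common trimer. Col4a1 (chr8:11198423-11312826) ran from 15.3 over 24.9 to 28.7 CPM in fed and from 13.1 over 17.2 to 21.5 CPM in fasted mice (log2 difference -0.47 ± 0.15, adjusted p = 0.025), and Col4a2 (chr8:11312805-11449287) from 7.49 over 14 to 15.9 and from 7.60 over 8.93 to 10.3 CPM (-0.53 ± 0.16, adjusted p = 0.020). The groups overlapped for both, since mouse 323 was the lowest fed mouse and lay among the fasted ones for Col4a1 and below them for Col4a2. The ratio of Col4a1 to Col4a2 per kilobase stayed between 1.66 and 2.15 over all 12 mice. These calls were less firm than those of the fibrillar chains. That of Col4a2 was lost without mouse 284, 254 or 257 (adjusted p = 0.051 to 0.062 in edgeR), and that of Col4a1 without mouse 284, 295, 277, 282, 254 or 257 (0.056 to 0.073).

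Col4a1 and Col4a2 lie head to head, with starts 21 bases apart on opposite strands, so that their promoter windows share 78 bases. The Col4a1 window is chr8:11312777-11313076 on the minus strand and the Col4a2 window chr8:11312555-11312854 on the plus strand, both printed 5′ to 3′ of their own gene. The Col4a1 window holds 1 CCAAT box and 1 GC box, and the Col4a2 window 1 and 3. In GENCODE vM39, which is not the annotation behind the GRCm38 positions, their exons overlap by 311 bases on opposite strands. The counted rows, at the positions given above, overlap only between the 2 starts. Whether the deposited counts used strand is not given in the sources used here. Reads from a stretch shared in the counted annotation could therefore have gone to either gene.
Col4a1: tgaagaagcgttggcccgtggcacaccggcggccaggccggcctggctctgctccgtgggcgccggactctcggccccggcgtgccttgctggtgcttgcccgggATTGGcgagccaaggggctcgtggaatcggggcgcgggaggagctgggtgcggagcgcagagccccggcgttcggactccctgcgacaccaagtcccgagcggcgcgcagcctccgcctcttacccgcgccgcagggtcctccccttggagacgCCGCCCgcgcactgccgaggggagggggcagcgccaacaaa
Col4a2: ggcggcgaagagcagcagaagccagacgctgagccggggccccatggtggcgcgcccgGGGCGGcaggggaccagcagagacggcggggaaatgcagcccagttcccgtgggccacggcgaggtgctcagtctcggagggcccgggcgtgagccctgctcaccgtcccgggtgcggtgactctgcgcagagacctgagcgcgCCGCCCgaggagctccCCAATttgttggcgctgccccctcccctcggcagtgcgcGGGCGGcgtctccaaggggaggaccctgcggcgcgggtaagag

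Col4a5, a chain of the kidney type of collagen IV, fell by 0.65 ± 0.23 on the log2 scale (adjusted p = 0.044), but DESeq2 gave an adjusted p of 0.053 and the call held in 3 of 12 fits that each left out 1 mouse, those without 295, 265 or 257 (edgeR adjusted p = 0.016 to 0.11 over the 12). Col4a3, Col4a4 and Col4a6 had 15 or fewer counts in every library and were not tested.

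Collagen VI forms beaded filaments next to basement membranes. Its chains Col6a2 and Col6a3 fell by 1.01 ± 0.17 and 1.07 ± 0.22 on the log2 scale (adjusted p = 0.00057 and 0.0024). Col6a2 stood at 2.13 to 3.41 CPM in fed and 1.24 to 2.04 CPM in fasted mice, without overlap. The partner chain Col6a1 stood at 2.79 to 4.79 and 2.35 to 3.94 CPM, and its log2 difference of -0.32 (95% interval -0.65 to 0.012, adjusted p = 0.13) did not pass. Its level per kilobase was 1.43 to 1.81 times that of Col6a2 in fed mice and 1.65 to 3.47 times in fasted mice.

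FACIT collagens sit on the surface of fibrils and link them to other matrix. Of 6 genes 4 were tested, 3 fell and 1 rose. Col14a1 (chr15:55307750-55520803), the most abundant of them, had the smallest p of the 40. It ran from 42.5 over 52.1 to 57.8 CPM in fed mice and from 23.2 over 24.9 to 25.9 CPM in fasted mice. The fasted mice were nearly alike and far below every fed mouse, a 2.06-fold fall (log2 difference -1.04 ± 0.08, adjusted p = 1.6e-06). Col16a1 fell by 0.99 ± 0.17 and Col20a1 by 1.40 ± 0.32 on the log2 scale (adjusted p = 0.00075 and 0.0043), again without overlap. Col20a1 had 188 counts in all, and the neighbouring row 9230112E08Rik, which shares 91 exon bases with it, fell too (log2 difference -0.84, adjusted p = 0.0058).

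Col12a1, the FACIT closest to Col14a1 in structure, went the other way. It stood at 1.44, 1.73 and 1.11 CPM in fed mice labelled NTS WT and 1.14, 1.23 and 0.564 in those labelled NTS KO, and in fasted mice at 2.13, 2.08 and 2.79 CPM and at 2.47, 2.77 and 2.29 CPM. All 6 fasted mice were above all 6 fed mice, a 2.04-fold rise (log2 difference 1.03 ± 0.20, adjusted p = 0.0017). Its level per kilobase remained small beside that of Col14a1, at 0.153 against 5.86 CPM over all mice.

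The multiplexin collagens of vessel basement membranes did not pass. Col18a1, whose end fragment is endostatin and which hepatocytes make in quantity, had 116.6 CPM per kilobase over all mice, next to Fn1 among the 55 genes. It ran from 729.7 over 768 to 914 CPM in fed and from 635 over 759 to 885 CPM in fasted mice, with a log2 difference of -0.048 (95% interval -0.27 to 0.17, adjusted p = 0.75). Col15a1 had a wider interval, -0.92 to 0.22 around -0.35. Col13a1, a transmembrane collagen, stood at 1.81 to 4.97 CPM in fed and 4.30 to 6.93 CPM in fasted mice (0.39, interval -0.019 to 0.79, adjusted p = 0.13). Of the transmembrane collagens that were not tested, Col23a1 (2 to 12 counts a library) was the most abundant. Of the network collagens other than collagen IV none was tested, and Col8a1 (2 to 15 counts a library) was the most abundant.

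Laminins are trimers of an alpha, a beta and a gamma chain, and their chains parted under fasting. All 11 were tested, 4 fell, 3 rose and 4 did not pass. Lama1 (chr17:67697265-67822645), the alpha chain of early embryonic basement membranes, stood at 5.61, 5.52 and 3.41 CPM in fed mice labelled NTS WT and 5.85, 5.39 and 5.80 CPM in those labelled NTS KO. In fasted mice it stood at 2.09, 2.61 and 2.36 and at 1.74, 2.25 and 2.08 CPM. It fell 2.40-fold without overlap (log2 difference -1.26 ± 0.15, adjusted p = 3.7e-05). Lamb1, the widely used beta chain, fell 1.70-fold without overlap, from 7.63 to 9.39 CPM in fed to 3.87 to 6.12 CPM in fasted mice (-0.77 ± 0.13, adjusted p = 0.00058). Lama4, the alpha chain of vessel endothelium, fell by 0.50 ± 0.15 on the log2 scale (adjusted p = 0.019).

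Lamc1, the gamma chain that pairs with Lamb1 in most laminins, fell by only 0.29 ± 0.10 on the log2 scale (adjusted p = 0.030), and the call held in 4 of 12 fits that left out a mouse, those without 323, 303, 319 or 290. The level of Lamc1 per kilobase was 1.10 to 1.33 times that of Lamb1 in fed mice and 1.40 to 2.23 times in fasted mice, so the ratio did not overlap. Lamb2, the beta chain of mature vessel and muscle membranes, had a log2 difference of -0.19 (95% interval -0.49 to 0.11, adjusted p = 0.32).

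Lamb3 (chr1:193207699-193343878), the beta chain of the anchoring laminin of skin and other epithelia, rose more than any other of the 40. Fed mice stood at 4.03, 2.43 and 3.86 CPM (labelled NTS WT) and 3.99, 5.28 and 4.51 CPM (labelled NTS KO). Fasted mice stood at 17.9, 21.1 and 8.46 CPM and at 25.3, 22.4 and 23.2 CPM. Every fasted mouse lay above every fed one, with mouse 322 (labelled NTS WT) the lowest of the fasted. The rise was 4.86-fold (log2 difference 2.28 ± 0.21, adjusted p = 7.7e-06). The level per kilobase of Lamb3 was 0.279 to 0.536 times that of Lamb1 in fed mice and 1.96 to 5.56 times in fasted mice.

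Lama3, an alpha chain of epithelial laminins, stayed low and did not pass. It was at most 0.589 CPM in any mouse, with a log2 difference of -0.49 (95% interval -1.35 to 0.38). The row of Lamb3 spans other genes in the table. Hsd11b1, an abundant cortisone-reducing enzyme with 182803 counts, shares 0 exon bases with it and fell by 0.33 on the log2 scale (adjusted p = 0.023). G0s2, an inhibitor of fat breakdown, shares 119 of the 8227 exon bases of Lamb3 on the opposite strand and rose, with 59.3 to 156 CPM in fed and 130 to 623 CPM in fasted mice (log2 difference 1.55, adjusted p = 0.017). The part of such shared reads in the rise of Lamb3 was not tested. Of 2 RefSeq promoter windows of Lamb3, that at chr1:193301744-193302043 (plus strand) holds none of the searched motifs, which says nothing of the factors that bind there. The other window is not printed, and whether it holds any of the motifs is not given here.
Lamb3: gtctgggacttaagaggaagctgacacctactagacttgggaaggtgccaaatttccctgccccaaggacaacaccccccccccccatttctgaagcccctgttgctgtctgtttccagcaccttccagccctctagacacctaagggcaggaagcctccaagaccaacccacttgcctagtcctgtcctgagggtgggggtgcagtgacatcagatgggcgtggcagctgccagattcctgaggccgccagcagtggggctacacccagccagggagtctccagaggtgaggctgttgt

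The other laminin chains that rose were scarce. Lama5, the alpha chain of most adult epithelial membranes, stood at 0.754 to 1.59 CPM in fed and 1.20 to 2.29 CPM in fasted mice (log2 difference 0.73 ± 0.21, adjusted p = 0.016), and Lamc3 at 0.564 to 1.59 and 0.733 to 4.08 CPM (1.30 ± 0.37, adjusted p = 0.017). Both overlapped between fed and fasted mice, and Lamc3 was as low in fasted mouse 284 as in the middle of the fed mice. Lama2, the muscle alpha chain, was at or below 1.19 CPM in every mouse, with a log2 difference of 0.024 (95% interval -0.66 to 0.71).

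Nidogens bridge the laminin and the collagen IV network, and only 1 of the pair passed. Nid2 (chr14:19751257-19811787) stood at 10.2, 13.2 and 8.02 CPM in fed mice labelled NTS WT, at 11.7, 6.01 and 11.6 CPM in those labelled NTS KO, at 3.51, 3.57 and 3.72 CPM in fasted mice labelled NTS WT and at 2.79, 3.07 and 2.01 CPM in those labelled NTS KO. The fasted mice lay in a narrow band below every fed mouse. The fall was 3.31-fold (log2 difference -1.73 ± 0.19, adjusted p = 1.9e-05). The row 2700060E02Rik on the opposite strand, with 767 exon bases in common, had 23260 counts and a log2 difference of 0.11 (adjusted p = 0.33). Nid1 ran from 10.9 over 12.7 to 17.2 CPM in fed and from 11.4 over 12.9 to 15.5 CPM in fasted mice, with a log2 difference of -0.019 (95% interval -0.23 to 0.19, adjusted p = 0.91). This mean for Nid1 joins opposite signs, 0.29 with the NTS WT label and -0.33 with the NTS KO label (adjusted p = 0.17 and 0.12, edgeR). The interval of the Nid1 mean ends well short of the fall of Nid2. The ratio of Nid2 to Nid1 per kilobase was 0.437 to 1.44 in fed and 0.221 to 0.366 in fasted mice, without overlap.

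Of the proteoglycans of the basement membrane, Agrn fell by 0.49 ± 0.12 on the log2 scale (adjusted p = 0.0066), from 16.2 to 23.3 CPM in fed to 12.9 to 17.7 CPM in fasted mice. Hspg2, the core protein of perlecan, stood at 6.16 to 14.5 and 8.21 to 13.2 CPM, and its difference of -0.24 (95% interval -0.60 to 0.12, adjusted p = 0.30) did not pass.

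**Figure D3:**
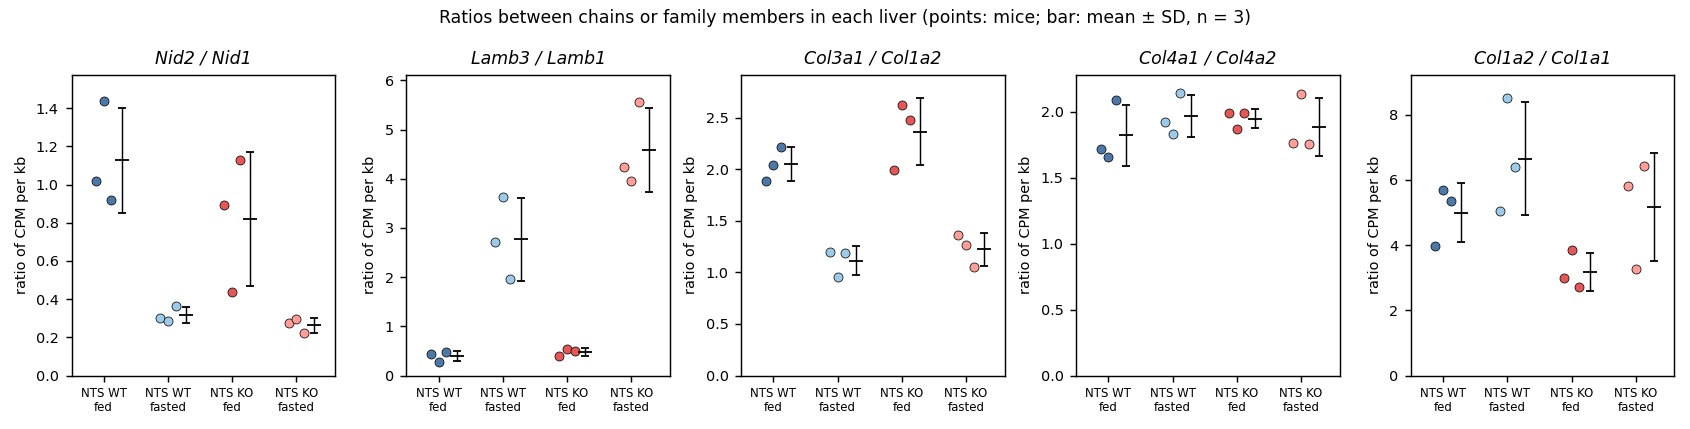
Ratio of CPM per kilobase of transcript (y axis, from 0) between pairs of related genes in each of the 12 livers, by genotype label and feeding (x axis). Points are mice, and bars are the mean ± SD of 3 mice. Nid2 to Nid1 and Col3a1 to Col1a2 are lower and Lamb3 to Lamb1 is higher in every fasted mouse, while Col4a1 to Col4a2 stays between 1.66 and 2.15 and Col1a2 to Col1a1 overlaps.

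Among the proteins that organise the matrix, Sparc, a calcium-binding collagen chaperone of endothelium and stellate cells, ran from 37.7 over 46.0 to 52.6 CPM in fed and from 27.1 over 28.7 to 31.9 CPM in fasted mice. It fell 1.59-fold without overlap (log2 difference -0.67 ± 0.08, adjusted p = 3.4e-05). Of the 3 small leucine-rich proteoglycans, which coat collagen fibrils, 1 passed. Bgn fell by 0.27 ± 0.10 on the log2 scale (adjusted p = 0.048), a call that held in 2 of 12 fits, those without mouse 319 or 323. Dcn ran from 123 over 161 to 172 CPM in fed and from 137 over 147 to 153 CPM in fasted mice (-0.10, 95% interval -0.30 to 0.089, adjusted p = 0.40), and Lum had a difference of -0.37 (-0.84 to 0.11, adjusted p = 0.22).

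Fn1, fibronectin, was the most abundant of the 55 genes per kilobase, at 140.5 CPM. Hepatocytes secrete it into plasma, and other cells deposit it in the matrix. It ran from 937 over 1038 to 1282 CPM in fed and from 1130 over 1300 to 1462 CPM in fasted mice, which overlapped, and rose 1.23-fold (log2 difference 0.30 ± 0.11, adjusted p = 0.047). That call held in 3 of 12 fits, those without mouse 322, 277 or 284. Fn1 and Col18a1 together made up 76.3 to 78.4% of the counts of the 55 genes in fed and 80.6 to 84.3% in fasted mice. Without these 2 genes the rest summed to 464 to 619 CPM in fed and 416 to 449 CPM in fasted mice, so that every fasted mouse was lower. With them the sums, 2148 to 2816 and 2266 to 2744 CPM, overlapped. The sum without Fn1 and Col18a1 includes genes reported above as lower, such as Col14a1 and Sparc, so it is not a separate result.

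The fasting response was then taken within each genotype label, where 3 fasted mice stand against 3 fed. In livers labelled NTS WT 13 of the 40 genes fell and 2 rose (of all genes 9.19% fell and 8.91% rose), with a median log2 difference of -0.44. In livers labelled NTS KO 17 fell and 2 rose (9.14% and 7.7% of all genes), with a median of -0.53. The same 13 genes passed in both with the same direction, 2 passed only in NTS WT (Lama5 and Col20a1) and 6 only in NTS KO (Col1a1, Col1a2, Col4a1, Col12a1, Lamc1 and Bgn). None of these 8 is shown to differ between the labels, since no difference of responses passed. When 1 mouse was left out, the call of Lama5 in NTS WT held in 0 of 6 fits and that of Col20a1 in 1. Col20a1 in NTS KO had an adjusted p of 0.052 (edgeR). Of the 6 calls only in NTS KO, that of Col12a1 held in all 6 fits and the others in 1 to 4. Of the 40 genes 37 had the same sign in both. The shares of all genes that passed in both labels, or had the same sign in both, are not given here. The 2 labels shared no mouse, but all 40 genes were read in the same mice, so their signs are not separate observations.

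Lamb3 had log2 differences of 2.20 ± 0.30 in livers labelled NTS WT and 2.36 ± 0.29 in those labelled NTS KO (adjusted p = 0.00053 and 0.00023). Col14a1 fell by 0.93 ± 0.11 and 1.16 ± 0.11, Col3a1 by 1.35 ± 0.21 and 1.75 ± 0.21, and Nid2 by 1.54 ± 0.26 and 1.91 ± 0.27 on the log2 scale. Collagen IV had log2 differences of -0.28 ± 0.21 (Col4a1) and -0.43 ± 0.22 (Col4a2) with the NTS WT label and of -0.66 ± 0.21 and -0.62 ± 0.22 with the NTS KO label, and of these only Col4a1 in NTS KO passed (adjusted p = 0.044). That call was lost without mouse 284, 295, 277 or 319 (adjusted p = 0.085 to 0.16, edgeR), and the difference between the labels for Col4a1, -0.38 (95% interval -1.01 to 0.25, adjusted p = 0.90), did not pass. The counts within a label leaned on single mice. In NTS WT, 8 genes passed without mouse 282 and 9 without mouse 254, and 8 of the 15 calls held in all 6 fits. In NTS KO, 10 passed without mouse 277 and 11 without mouse 295, and 10 of the 19 calls held in all 6.

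**Figure D4:**
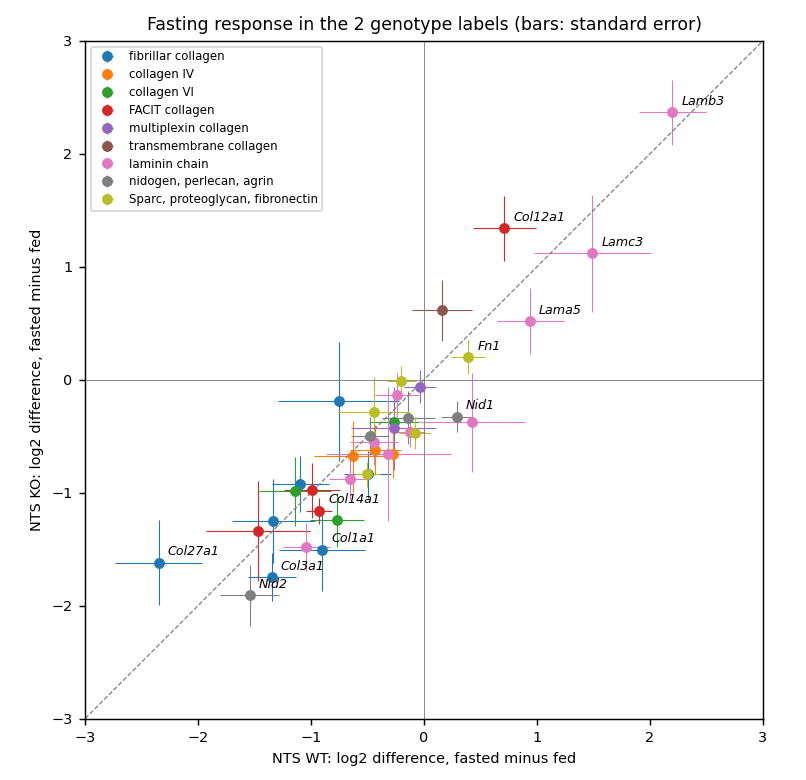
Log2 difference, fasted minus fed, in livers labelled NTS WT (x axis) and NTS KO (y axis) for 39 of the genes tested, coloured by role. Bars are standard errors (3 fasted and 3 fed mice per label) and the dashed line marks equal values. Of the 39 points 37 have the same sign on both axes, and Nid1 lies at 0.29 and -0.33.

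Between livers labelled NTS KO and NTS WT no gene of the 40 passed after adjustment. In fed livers edgeR called 0 of the 40 (0% of all genes), and DESeq2 called 0 as well (0.0869% of all genes). At an unadjusted p under 0.05 there were 5 of the 40 in edgeR and 6 in DESeq2, with 6.34% of all genes in edgeR. The median log2 difference of the 40 was 0.19, with 28 of the 40 above 0, and that of all genes was 0.010. All 40 were read in the same 6 mice, so their signs are not separate observations. Mouse 323 (labelled NTS WT) was the lowest fed mouse for 24 of the 40 and mouse 277 (labelled NTS KO) the highest for 18. How often they were so over all genes is not given here, and the part of these 2 mice in the signs was not tested. Nid1 had the smallest p. It stood at 12.5, 11.5 and 10.9 CPM in fed livers labelled NTS WT and at 16.4, 17.2 and 12.9 CPM in those labelled NTS KO, so the groups did not overlap, but a log2 difference of 0.41 (95% interval 0.11 to 0.71, unadjusted p = 0.011, edgeR) came to an adjusted p of 0.73. Col4a5 (0.82, interval 0.14 to 1.51) and Col1a1 (0.87, interval 0.11 to 1.62) came next, with adjusted p = 0.73 and 0.75.

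In fasted livers edgeR again called 0 of the 40 genes (0% of all genes) and DESeq2 called 0 (0.029% of all genes). At an unadjusted p under 0.05 edgeR had 1 of the 40 and DESeq2 had 2, with 4.96% of all genes in edgeR, and the median log2 difference was 0.031. Col4a5 was that gene, at 0.901, 0.496 and 0.732 CPM with the NTS WT label and 0.870, 0.996 and 1.68 CPM with the NTS KO label (log2 difference 0.78, 95% interval 0.058 to 1.5, adjusted p = 0.92). Lamb3 (0.58, interval -0.0063 to 1.18) and Col6a3 (0.57, interval -0.13 to 1.26) followed. The intervals still allow sizeable differences for scarce genes. Over the 40 genes the median distance from the difference to its bound was 0.50 on the log2 scale in fed and 0.54 in fasted livers. For abundant genes they were tighter, from -0.27 to 0.38 for Fn1 and -0.41 to 0.13 for Dcn in fed livers, and from -0.46 to 0.19 and -0.22 to 0.33 in fasted livers.

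**Figure D5:**
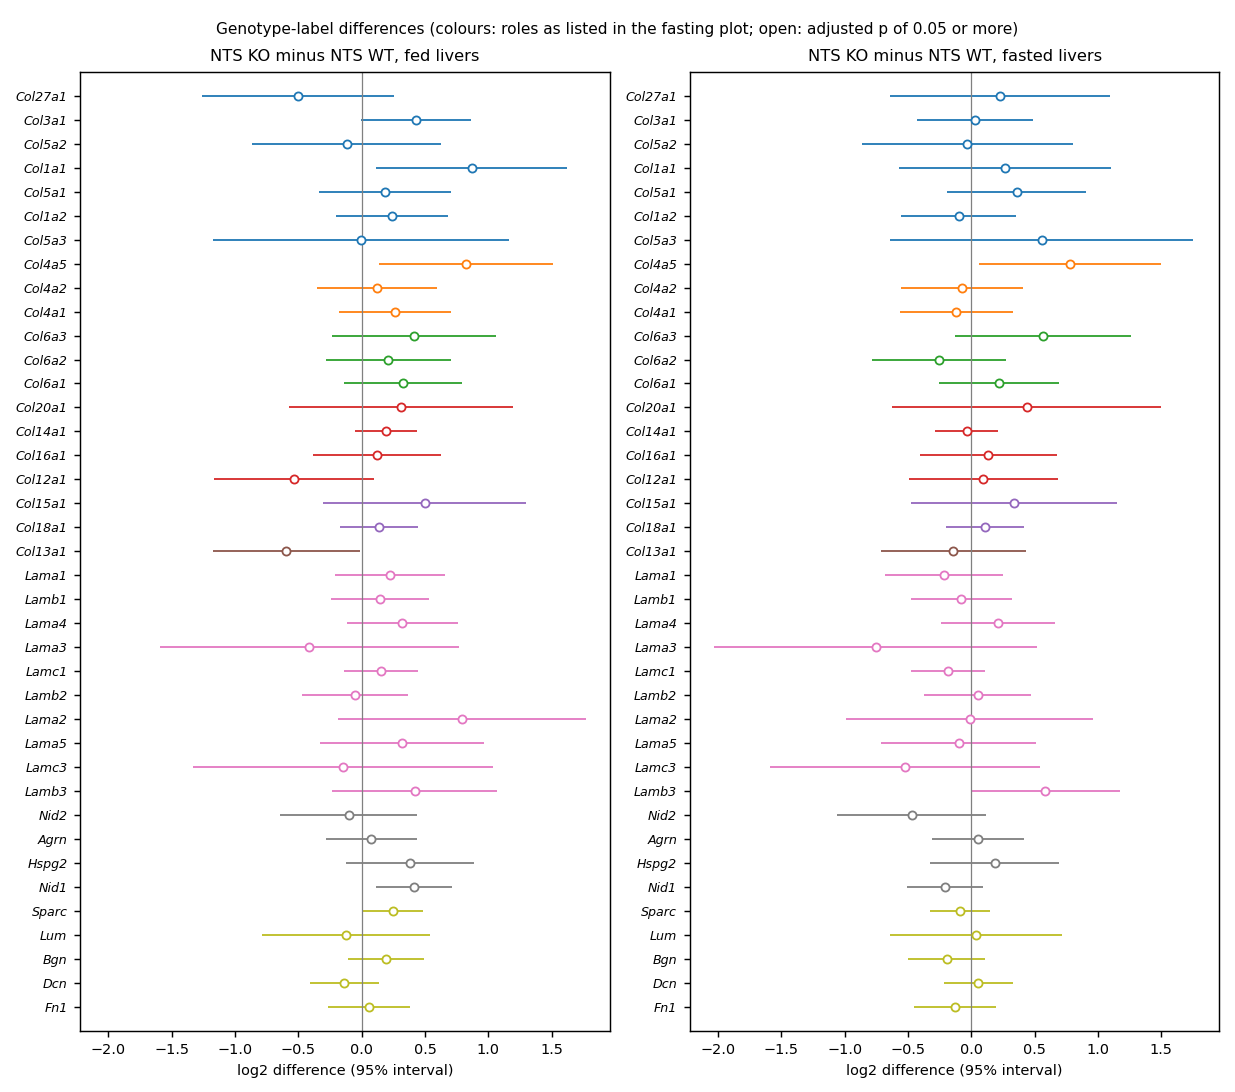
Log2 difference, livers labelled NTS KO minus NTS WT (x axis), for 39 of the genes tested (y axis) in fed (left) and fasted mice (right), 3 mice per group. Colours give the roles, bars are 95% intervals, and all circles are open because no adjusted p was under 0.05. In fed livers 28 of the 39 points lie right of 0, and in fasted livers 20.

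The difference between the fasting responses of the labels was tested as an interaction. edgeR called 0 of the 40 genes (0% of all genes) and DESeq2 0 (0.0217%), and 1 of the 40 had an unadjusted p under 0.05 in each, with 4.8% of all genes in edgeR. That gene was Nid1. With the NTS WT label it stood at 10.9 to 12.5 CPM fed and 14.6, 15.5 and 12.7 CPM fasted, and with the NTS KO label at 12.9 to 17.2 CPM fed and 12.8, 12.9 and 11.4 CPM fasted. The interaction was -0.62 (95% interval -1.04 to -0.19, unadjusted p = 0.0076, edgeR) with an adjusted p of 0.90. Sparc (-0.33) and Bgn (-0.39) came next with the same adjusted p. The median of the 40 interactions was -0.17, beside -0.020 for all genes.

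The other genes that make, remodel and bind this matrix were followed as lists, to be read beside the 16.8% of all genes that fell and the 16% that rose. Of 28 tested genes of collagen processing 9 fell and 4 rose with fasting in the mean of both labels. Serpinh1, the collagen chaperone of the endoplasmic reticulum, fell from 9.49 to 15.1 CPM in fed to 3.29 to 4.91 CPM in fasted mice (log2 difference -1.55). Pcolce, which speeds the trimming of procollagen, fell from 4.66 to 6.53 to 2.21 to 3.71 CPM (-1.0). Plod1, a lysyl hydroxylase of collagen, rose from 41.6 to 49.3 to 62.0 to 67.5 CPM (0.49). The 3 did not overlap between fed and fasted mice.

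Of 13 tested genes of matrix turnover 4 fell and 3 rose. Timp3, a matrix-bound metalloproteinase inhibitor, and Mmp14, a membrane collagenase, both rose (log2 differences 0.62 and 0.52), while Mmp19 fell (-0.42). Of 21 tested matrix receptors 6 fell and 1 rose, with the integrin chains Itga8, Itga9 and Itgb5 among those that fell (-1.17, -0.87 and -0.41). Itga8 pairs into the receptor of nephronectin, Npnt, a basement membrane protein that went from 0.184 to 1.01 CPM in fed to 3.57 to 13.1 CPM in fasted mice (3.58). Npnt was the only 1 of 25 tested other matrix proteins that rose, and 7 fell, among them the elastic fibre protein Emilin1 (-0.73) and the proteoglycan Prelp (-0.62).

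TGF-beta is the best known inducer of collagen genes. Of 16 tested genes of TGF-beta and the CCN proteins 4 rose and 2 fell, near the shares of all genes. The receptor Tgfbr1 rose from 12.9 to 20.9 CPM in fed to 22.3 to 29.0 CPM in fasted mice (log2 difference 0.60), Ctgf rose from 1.86 to 7.65 to 4.67 to 12.8 CPM (1.33), and Ltbp4, which stores the latent ligand in the matrix, fell by 0.58 on the log2 scale. No gene of any of the 5 lists passed in a comparison of the genotype labels.

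Markers of the cells that make the matrix were counted in the same comparison, where 16.8% of all genes fell and 16% rose. Of 12 stellate cell markers, all tested, 6 fell and 1 rose, and their summed level was 186 to 232 CPM in fed and 133 to 181 CPM in fasted mice. Of 10 markers of sinusoidal endothelium 7 fell and 1 rose (277 to 407 and 230 to 269 CPM), of 10 of vascular endothelium 2 fell (79.0 to 102 and 70.5 to 81.2 CPM), of 4 tested of smooth muscle 3 fell (5.76 to 11.1 and 4.51 to 6.28 CPM), and of 5 tested of cholangiocytes 1 fell (45.4 to 64.8 and 28.6 to 41.7 CPM). The counts for vascular endothelium and cholangiocytes lie near the share of all genes. The sums of stellate, sinusoidal and cholangiocyte markers did not overlap between fed and fasted mice. Their part in the fall of the matrix genes was not tested.

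The other marker lists were counted in the same way. Of 8 Kupffer cell markers 2 fell, of 5 tested of portal fibroblasts and mesothelium 1 rose and 1 fell, and of 5 erythroid markers 1 fell. Of 7 hepatocyte markers 2 rose and 2 fell, with sums of 111212 to 140352 CPM in fed and 120465 to 143300 CPM in fasted mice. Of the 6 adipocyte markers, Cidec alone could be tested and rose by 6.85 on the log2 scale, and 2 had no count in any library. The summed level of this list went from 0.147 to 1.24 CPM in fed to 40.0 to 70.9 CPM in fasted mice. With 1 marker tested, that sum cannot be read as a measure of adipocytes. Of 8 hepatocyte markers listed 7 were analysed, and no stellate, endothelial or hepatocyte marker analysed was at 0 in all libraries. The part of these cells in the matrix results was not tested.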

How the data were processed

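Liver RNA of 12 mice was sequenced from total RNA. The values the authors deposited are expected counts per gene (estimated, sometimes fractional, unscaled), in a table with GRCm38 positions. Trimmomatic and RSEM are named in the submitters' processing notes, and the aligner is not given in the sources used here. Columns of other samples numbered 0. The labels give all mice the same batch value, so no batch could be compared.

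Counts were rounded. In R 4.3.3, edgeR 4.0.16 kept 13812 genes (filterByExpr by group), normalized with TMM and fitted 1 robust quasi-likelihood model with a mean per group to all 12 mice. Benjamini-Hochberg adjusted p values under 0.05 over all genes were counted. Contrasts were fasted against fed in the mean of both labels and within each, NTS KO against NTS WT in each feeding state, and the interaction. Levels are TMM-normalized CPM, and per kilobase they are divided by the longest GENCODE vM39 transcript. Lengths and GC content were found for 99.2% of genes tested. Exon bases shared by overlapping rows were also counted in GENCODE vM39, not in the annotation behind the GRCm38 positions. The steps were tested on simulated data.

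Alternatives were RLE factors, DESeq2 1.42.0, other count filters, fits of only the mice compared, offsets for transcript length or GC content, and leaving out each mouse. The genes named are those that passed in any contrast (up to 25 by smallest p), the most abundant of each role, a set listed by name (Col4a1, Col4a2, Col1a1, Col1a2, Col3a1, Lamb1, Lamc1, Nid1, Hspg2, Dcn, Sparc, Fn1), up to 3 of smallest p per contrast and, of each pathway list, the 3 of smallest p that passed. Other genes given with values (such as Bgn, Lum, and the rows that overlap Lamb3 and Nid2) were added once values were known. The members, lists and tests were chosen with earlier results of these data known. Depth was 21999656 to 45273081 counts a library. 1 of the genes tested is counted but not reported here by name.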

Additional observations from a re-analysis of the deposited data

How the results depend on the processing

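The count of genes that passed in the mean of both labels was 24 to 27 under the other scalings, filters, tests and offsets, and 21 to 26 when a mouse was left out. Within NTS WT it was 8 to 14 when a mouse was left out (8 without mouse 282, 9 without mouse 254), and within NTS KO 10 to 19 (10 without mouse 277, 11 without mouse 295), where 2 mice stand against 3. The comparisons of genotype labels and the interaction gave 0 under every alternative run. No other scaling moved the median of all genes by more than 0.015 on the log2 scale. Fits of only the mice compared were not run for the mean and the interaction. No paired analysis was run, because no mouse number occurs in more than 1 group and litters are not given in the sources used here.

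Of 1920 values of single genes under an alternative, 1752 kept direction and side of the threshold, 124 lost the call, 7 gained it and 37 changed sign, each from a value between -0.20 and 0.18. The cause was not tested. When a mouse was left out, the log2 difference between fasted and fed mice in the mean of both labels ran from -0.092 to 0.0014 for Col18a1, -0.075 to 0.027 for Nid1 and -0.091 to 0.29 for Lama2, that of Hspg2 in NTS WT from -0.39 to 0.026, and that of Dcn in NTS KO from -0.13 to 0.11. Lama2 was -0.0065 with the offset for transcript length. Dcn in NTS KO, -0.0089 as reported, was 0.0066 with RLE factors, 0.0062 in DESeq2, 0.033 with the length offset and 0.018 with the GC offset. Between genotype labels, leaving out a mouse gave -0.14 to 0.32 for Col4a2 and -0.080 to 0.15 for Fn1 in fed livers. In fasted livers it gave -0.24 to 0.0089 for Col1a2, -0.21 to 0.20 for Col3a1, -0.35 to 0.0082 for Col4a1, -0.19 to 0.0098 for Col4a2, -0.024 to 0.32 for Hspg2 and -0.24 to 0.072 for Lamb1. Fn1 in fed livers was -0.031 with the length offset. The interaction ran from -0.39 to 0.067 for Col4a2 and from -0.40 to 0.055 for Hspg2. At the depth of these libraries the interval of Lama3, from -1.35 to 0.38, still holds a change of the size seen for Lamb1 (-0.77).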
